A study of Mus musculus with 8 samples.

Results

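The set described here is 10 aldo-keto reductase genes of families 1b and 1c in mouse liver: Akr1c18, Akr1c6, Akr1c12, Akr1c13, Akr1c14, Akr1c19, Akr1c20, Akr1b3, Akr1b7 and Akr1b8. Members were found by their symbols in the array's probe-to-gene table, and for each gene the probe with the highest mean over all 8 arrays was read. Of the 10 genes 7 had a probe named there, with 1 probe each, among 19321 genes with a named probe. All 7 were bright enough to be tested, as were 16798 genes in all. Akr1c19, Akr1b3 and Akr1b7 have no entry in that table and were not analysed here. The probe of each gene was chosen by its mean intensity over all arrays, and the family was chosen by name with the higher Akr1c18 level in the tumours already known. The tumour values of Akr1c18 are therefore given as a description, with fold changes and no p-value.

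Every mouse had received the carcinogen DMBA when 4 to 5 days old and then ate a normal or a high fat diet for 30 weeks. The groups were 2 arrays of normal diet liver (mice 117 and 120), 3 arrays of tumours that arose on high fat diet (mice 117, 186 and 1) and 3 arrays of the non-tumour tissue of those same livers. Tumour and non-tumour arrays that carry the same mouse number come from 1 liver, while the normal diet mouse 117 is another animal. No group without DMBA was among the arrays used here, and the strain and sex of the mice are not given in the sources used here. The study, as its labels describe it, set tumours of the fat-fed livers against the tissue around them and against livers on normal diet.

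Aldo-keto reductases are cytosolic enzymes that use NADPH to reduce aldehydes and ketones to alcohols, and some work in the opposite direction as hydroxysteroid dehydrogenases. Enzymes of family 1c act on steroid hormones, bile acid precursors and prostaglandins, whereas those of family 1b include aldose reductase and relatives that clear reactive aldehydes. In liver these enzymes take part in steroid and bile acid turnover and in the handling of foreign compounds.

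Levels below are the deposited normalized intensities, which are linear, relative to the blank spots and scaled so that the median listed probe of every array is 25. Fold changes and tests come from a separate normalization of the scanner signals (log2 scale, with an offset of 50 that makes the changes of dim genes smaller), fitted over all 16798 genes with limma, and a gene was called at a Benjamini-Hochberg adjusted p below 0.05. Arrays correlated at 0.984 to 0.996 within groups and at 0.919 to 0.983 between groups, and 81.8% to 88.5% of probes had a deposited value. Albumin (Alb) was bright on all 8 arrays, from 44980 to 56458, while the liver tumour markers Afp and Gpc3 summed to 1409 to 1953 on the tumour arrays against 9.6 to 23.0 on the other 5. The Y chromosome genes Eif2s3y (149 to 283) and Kdm5d (32.1 to 55) had a value on all 8 arrays, and Xist was 12.4 to 16.7. The level of a probe depends on its own binding, so levels of different genes are not set against each other. In bulk tissue, fewer cells of a type and less RNA per cell cannot be told apart.

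The family 1c members form 1 cluster. On chromosome 13 the order of protein-coding genes in RefSeq is Akr1c14, Akr1c18, Akr1c13, Akr1c19, Akr1c12, Akr1c6, Akr1c20, Akr1c21 and Akr1e1, between Ucn3 and Klf6 and with no other protein-coding gene among them. Akr1b3, Akr1b8, Akr1b10 and Akr1b7 stand together on chromosome 6. The 250 bases upstream of the annotated start were available from RefSeq (build GRCm38.p6) for 8 of the 10 members. Those of Akr1c18 (chr13:4150647-4150896, minus strand) and Akr1c6 (chr13:4434093-4434342, plus strand) are shown because these genes of 1 cluster differed in opposite directions in the tumours. Those of Akr1c12 (chr13:4279400-4279649, minus strand) and Akr1c13 (chr13:4190937-4191186, plus strand) are shown because they are near copies. Capitals mark the letters CATTAGNNA, a repeat picked out after reading the windows and searched on both strands.
Akr1c18: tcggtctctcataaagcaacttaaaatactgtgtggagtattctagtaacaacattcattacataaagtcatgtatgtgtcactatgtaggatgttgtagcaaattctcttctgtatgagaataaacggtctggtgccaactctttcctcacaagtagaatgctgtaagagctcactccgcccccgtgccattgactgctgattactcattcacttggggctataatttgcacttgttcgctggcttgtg
Akr1c6: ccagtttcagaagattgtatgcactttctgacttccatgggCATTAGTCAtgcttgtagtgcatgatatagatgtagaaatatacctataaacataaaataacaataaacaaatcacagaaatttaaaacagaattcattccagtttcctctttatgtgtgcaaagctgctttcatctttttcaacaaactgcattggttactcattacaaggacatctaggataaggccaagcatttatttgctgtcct
Akr1c12: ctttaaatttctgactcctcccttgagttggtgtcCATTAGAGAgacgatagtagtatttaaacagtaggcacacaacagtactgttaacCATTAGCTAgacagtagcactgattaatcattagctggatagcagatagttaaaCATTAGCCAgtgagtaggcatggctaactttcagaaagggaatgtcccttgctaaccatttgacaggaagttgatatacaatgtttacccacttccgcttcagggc
Akr1c13: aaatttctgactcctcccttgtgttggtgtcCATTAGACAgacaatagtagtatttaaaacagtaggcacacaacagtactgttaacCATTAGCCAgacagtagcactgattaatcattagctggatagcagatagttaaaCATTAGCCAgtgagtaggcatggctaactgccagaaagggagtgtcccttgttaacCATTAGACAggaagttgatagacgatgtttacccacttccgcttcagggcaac

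Aligned to each other, the Akr1c12 and Akr1c13 windows were identical at 235 of 247 columns (95.1%), with 11 mismatches and 1 gap. Every other pair among the 8 windows was identical at 43.5% to 59.1% of its columns. The repeat occurred 3 times in the Akr1c12 window, 4 times in that of Akr1c13, 2 times in that of Akr1c19 and 1 time in that of Akr1c6. These letters were not in the windows of Akr1c18, Akr1c14, Akr1b7 or Akr1b8. Of all 32851 promoter windows of the same length 693 (2.11%) held it at least 1 time. Other motifs searched on both strands were the antioxidant response element core TGACNNNGC (in 10.2% of all windows), an HNF1 site GTTAATNAT (0.737%), an HNF4 site CAAAGTCCA (0.384%) and a STAT site TTCNNNGAA (7.02%). None of these letters was in the window of a measured member that has one. The STAT letters occurred 1 time, in the Akr1c19 window.

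In tumour against non-tumour tissue of the same livers, Akr1c18 was higher, Akr1c6 and Akr1c20 fell, and Akr1c12, Akr1c13, Akr1c14 and Akr1b8 did not pass the test. Of the 6 members other than Akr1c18, 2 were called lower and none higher. Of all genes tested, 25.4% were called in this comparison, 12.0% higher and 13.4% lower. The median log2 fold change of the 6 was -0.43, against -0.01 over all genes. Where groups are said below not to overlap, the share of all genes that separate likewise was not counted.

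**Figure D1:**
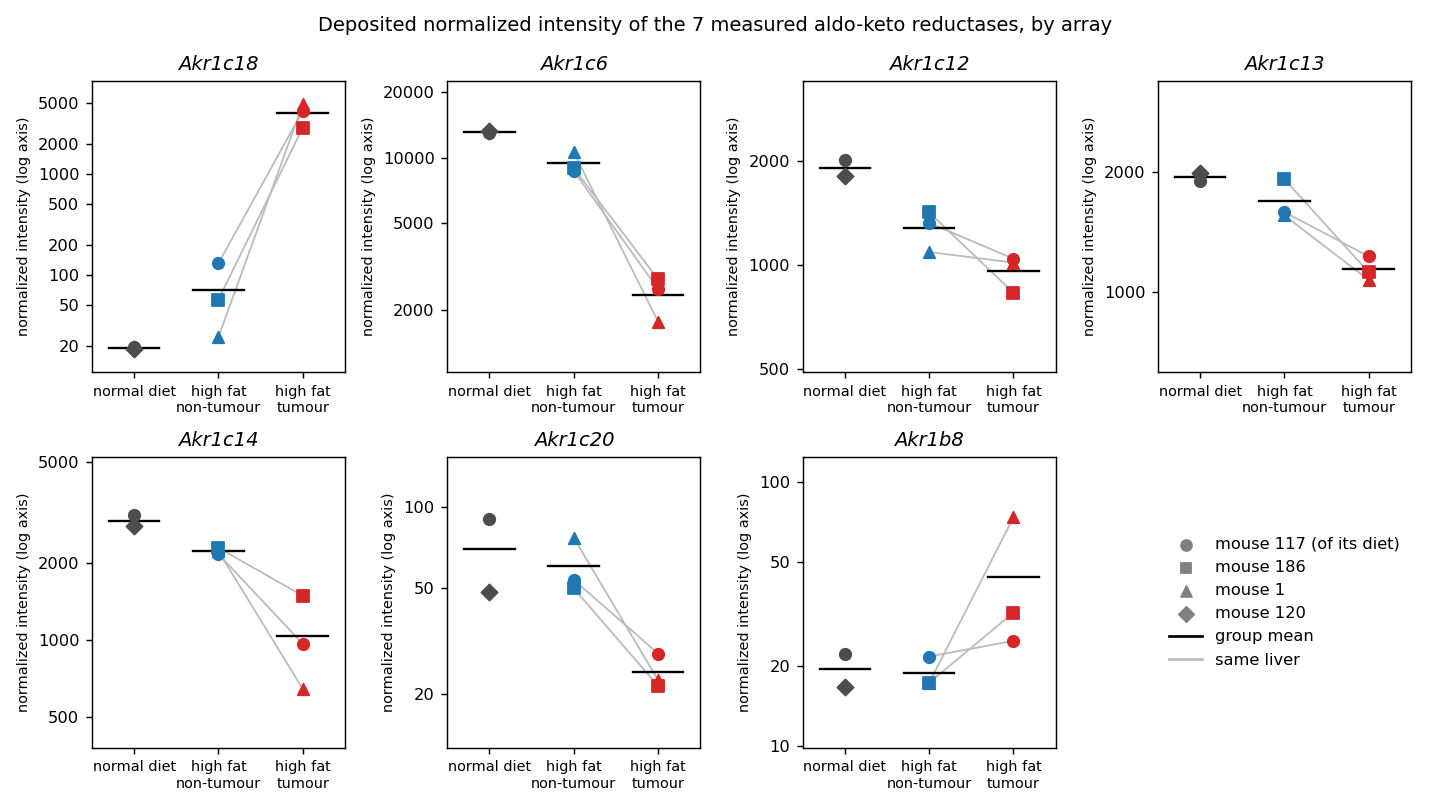
Deposited normalized intensity (vertical log axes, own scale per gene) of the 7 measured members in normal diet liver, high fat non-tumour tissue and high fat tumour. Each point is 1 array, black bars are group means, and grey lines join arrays of 1 liver: the Akr1c18 tumour points lie between 2887 and 4908, above every other array, and the Akr1c6 tumour points between 1775 and 2774, below every other array.

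Akr1c18 encodes the enzyme that inactivates progesterone to its hydroxy form. Its level was 19.4 and 18.6 in normal diet liver of mice 117 and 120. In non-tumour tissue it was 130.5 in mouse 117, 57.1 in mouse 186 and 24.3 in mouse 1. In the tumours it was 4238, 2887 and 4908 in the same order of mice. All 3 tumour arrays were far above all 5 others, and the non-tumour array of mouse 117 was the highest of the rest.

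The mean was 19.0 ± 0.566 (SD, n = 2) in normal diet liver, 70.6 ± 54.4 (n = 3) in non-tumour tissue and 4011 ± 1030 (n = 3) in the tumours. Tumour over non-tumour intensity was 32.5 in mouse 117, 50.6 in mouse 186 and 202 in mouse 1. The ratio was highest in mouse 1, whose non-tumour level was the lowest of the 3 and whose tumour level was the highest. The fitted log2 fold change against non-tumour tissue was 5.43 ± 0.33 (SE), and over the 19 alternative settings it lay between 4.24 and 6.08.

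Akr1c18 is also known from steroid-making organs, so markers of adrenal gland and gonad were read beside it. The summed level of the 8 such markers on the array was 101 to 145 in normal diet liver, 202 to 276 in non-tumour tissue and 647 to 1191 in the tumours, and 2 of the 6 measured rose in tumour against non-tumour tissue. Over all genes 12.0% were called higher in that comparison. On the high fat arrays most of the sum was Cyp17a1, a steroid hydroxylase. It was 22.3 and 23.1 in normal diet liver, 168 to 229 in non-tumour tissue and 536 to 1046 in the tumours. Cyp17a1 rose in tumour against non-tumour tissue (limma, adjusted p = 0.00192) and between the diets (1.82 ± 0.23, adjusted p = 0.0146). The other that rose was Inhba, an activin subunit, at 106 and 68.7 in normal diet liver, 21.5, 27.5 and 29.0 in non-tumour tissue and 50, 126.9 and 131.2 in the tumours (adjusted p = 0.0186). The remaining 6 did not exceed 8.7 on any array, among them Cyp11a1, the cholesterol side-chain cleavage enzyme (5.6 to 8.7), Star, the cholesterol transporter of steroid-making cells (at most 3.2), and Nr5a1, the steroidogenic nuclear receptor (listed on 1 array, at 1.9). The part of such cells in the Akr1c18 level was not tested.

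Akr1c6 encodes a hydroxysteroid dehydrogenase of liver that acts on estrogens and androgens. Its level was 13023 and 13192 in normal diet liver. In non-tumour tissue it was 8678, 8947 and 10587 in mice 117, 186 and 1, and in the tumours 2504, 2774 and 1775. The 3 groups did not overlap, and the tumour of mouse 1, which had the highest Akr1c18, had the lowest Akr1c6.

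The Akr1c6 means were 13107 ± 120 (n = 2), 9404 ± 1033 (n = 3) and 2351 ± 517 (n = 3). Non-tumour over tumour intensity was 4.00 for the means and 3.47, 3.23 and 5.96 in mice 117, 186 and 1. The log2 fold change was -1.68 ± 0.20 (limma, adjusted p = 0.00233). It kept its direction and its call under 18 of 19 alternatives. With local background subtraction it was 0.23 and not called, a setting under which 125 genes were called in all.

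Akr1c14, a hydroxysteroid dehydrogenase known for inactivating dihydrotestosterone, was 3077 and 2799 in normal diet liver. It was 2171, 2297 and 2228 in non-tumour tissue of mice 117, 186 and 1, and 965, 1490 and 642 in the tumours. Every tumour array was below every other array, but the tumours differed among themselves, with mouse 186 highest and mouse 1 lowest. The means were 2938 ± 196, 2232 ± 62.8 and 1032 ± 428, and the log2 fold change of tumour against non-tumour tissue was -0.91 ± 0.30, which did not pass (adjusted p = 0.0723). It passed without the tumour of mouse 186 (-1.22, adjusted p = 0.0106), with a common median in place of quantile normalization (-1.12, adjusted p = 0.0232) and on the authors' values (-1.20, adjusted p = 0.00689). It also passed with an offset of 16 (adjusted p = 0.0471) and a variance trend (0.0314). Without the tumour of mouse 1 it was smaller, at -0.57 (adjusted p = 0.0731), and with local background subtraction -0.32 (0.927).

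Akr1c20, the neighbour of Akr1c6 in the cluster and also a hydroxysteroid dehydrogenase, was 90.6 and 48.3 in normal diet liver. It was 53.5, 49.7 and 76.8 in non-tumour tissue of mice 117, 186 and 1, and 28.4, 21.5 and 22.6 in the tumours. The tumour arrays were below all others, whereas the other groups overlapped. The means were 69.5 ± 29.9, 60.0 ± 14.7 and 24.2 ± 3.71, with non-tumour over tumour ratios of 1.88, 2.31 and 3.40 in the 3 livers.

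The log2 fold change of Akr1c20 was -0.59 ± 0.14 (adjusted p = 0.0242). The call depended on single arrays: the adjusted p was 0.0547 without the non-tumour array of mouse 117, 0.0717 without that of mouse 1, 0.0644 without the tumour of mouse 186 and 0.0659 without that of mouse 1. With local background subtraction it was 0.638.

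Akr1c12 and Akr1c13 are the genes with near-copy upstream windows. Akr1c12 was 2015 and 1818 in normal diet liver, 1327, 1423 and 1091 in non-tumour tissue and 1044, 832 and 1017 in the tumours. Akr1c13 was 1903 and 1990, then 1589, 1920 and 1559, then 1231, 1122 and 1074 in the same order. For both genes every tumour intensity lay below every other array. On the quantile-normalized scale the tumour and non-tumour values overlapped for both genes.

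Neither passed the test in tumour against non-tumour tissue. The log2 fold change was -0.11 ± 0.13 for Akr1c12 (adjusted p = 0.607) and -0.26 ± 0.12 for Akr1c13 (adjusted p = 0.171). Akr1c13 passed with a common median (-0.51, adjusted p = 0.0190) and on the authors' values (-0.56, adjusted p = 0.0161), and was -0.15 without the non-tumour array of mouse 186 and -0.17 without the tumour of mouse 1. With 1 array left out Akr1c12 lay between -0.25 and -0.01. Sequences of the array's probes were not analysed here, so how far the probes of Akr1c12 and Akr1c13 tell these transcripts apart was not tested, and both are uncertain.

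Akr1b8 encodes an aldehyde reductase related to aldose reductase and was first described as induced by a fibroblast growth factor. It was 22.3 and 16.7 in normal diet liver. In non-tumour tissue of mice 117, 186 and 1 it was 21.8, 17.3 and 17.3, and in the tumours 25, 32.0 and 73.5. The tumour arrays lay above all others, but that of mouse 117 only by a narrow margin.

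The Akr1b8 means were 19.5 ± 3.96, 18.8 ± 2.60 and 43.5 ± 26.2. Tumour over non-tumour intensity was 1.15, 1.85 and 4.25 in mice 117, 186 and 1 and was thus highest in mouse 1. The log2 fold change of 0.43 ± 0.18 did not pass (adjusted p = 0.138). Without the tumour of mouse 1 it was 0.21, with an adjusted p of 0.0381. On the authors' values it was 1.02 (adjusted p = 0.0473).

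**Figure D2:**
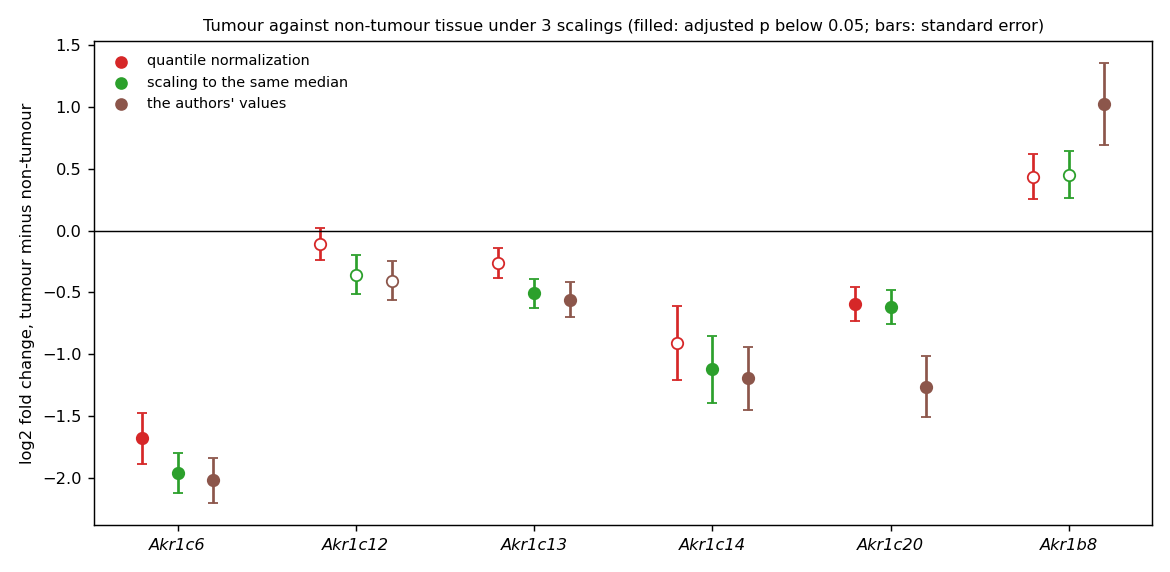
Log2 fold change of tumour minus non-tumour tissue for the 6 members other than Akr1c18 under quantile normalization, scaling to a common median and the authors' values. Filled points have an adjusted p below 0.05 and bars are standard errors: directions are the same under the 3 scalings, while Akr1c13, Akr1c14 and Akr1b8 pass under 1 or 2 of them.

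The scaling moved the members' counts. With every array set to a common median, 4 of the 6 members other than Akr1c18 were called, all lower. Of 16798 genes 2641 were then called lower and 1573 higher. On the authors' values 4 of the 6 were called lower and 1 higher, Akr1c12 being the exception. Over all genes 2373 were then called lower and 1636 higher. The 6 kept their direction under these scalings, as the plot of fold changes by scaling shows, and so did Akr1c18, which is not plotted there. With local background subtraction none of these 6 was called.

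**Figure D3:**
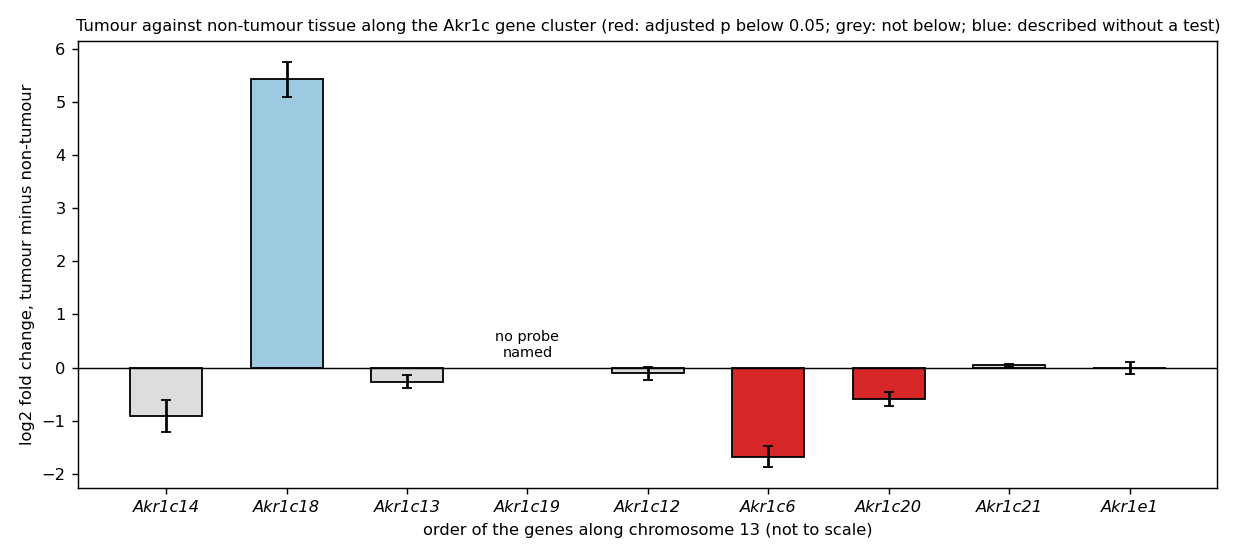
Log2 fold change of tumour minus non-tumour tissue for the genes of the chromosome 13 cluster, in genome order and not to scale. Bars are fitted values with standard errors, red where the adjusted p is below 0.05, grey where it is not and blue for Akr1c18, which is described without a test: Akr1c18 at 5.43 stands between Akr1c14 at -0.91 and Akr1c13 at -0.26.

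Along the cluster, the measured neighbours of Akr1c18 on either side, Akr1c14 and Akr1c13, had fold changes below 0 that did not pass. Akr1c6 and Akr1c20, which are adjacent, were the genes called lower. Akr1c21, also of the cluster but outside the set, was listed on 5 of 8 arrays and was at most 4.1. Akr1e1, at the end of the cluster, was 283 ± 28.2 in non-tumour tissue and 248 ± 3.12 in the tumours, with a log2 fold change of 0.00 ± 0.12 (adjusted p = 0.987).

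The tumours were not ordered alike for all members. That of mouse 1 was the highest of the 3 tumours for 2 of 7 members, Akr1c18 and Akr1b8, and the lowest for 3, Akr1c6, Akr1c13 and Akr1c14. That of mouse 117 was highest for 3 and lowest for 1, and that of mouse 186 was highest for 2 and lowest for 3. Cyp2e1, a hepatocyte marker, was 5359, 7218 and 1305 in the tumours of mice 117, 186 and 1 against 24645 to 32306 in non-tumour tissue, and fell by 2.69 ± 0.65 (adjusted p = 0.0259). Ass1, a urea cycle enzyme, was 764, 812 and 667 in the tumours against 2805 to 4598, and also fell (adjusted p = 0.000913). The hepatocyte markers Apoa1, an apolipoprotein, at 40812, 40399 and 41358 in the tumours against 22262 to 26575, and Serpina1c, a protease inhibitor, at 41106, 34596 and 44701 against 28325 to 34344, rose (adjusted p = 0.00320 and 0.00213). Cyp2e1 and Ass1 were thus lowest, and Apoa1 and Serpina1c highest, in the tumour of mouse 1. The other 4 of the 8 hepatocyte markers, Alb among them, did not pass. The part of tissue makeup in the members' values was not tested.

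Markers of several other cell types were read beside the members. In tumour against non-tumour tissue 12.0% of all genes were called higher and 13.4% lower, for comparison with the counts that follow. Macrophage markers summed to 1185 to 1337 in non-tumour tissue and 468 to 656 in the tumours, with 2 of 7 called lower and none higher. Red blood cell markers summed to 359 to 424 and 124 to 134, and all 3 measured were called lower. Bile duct markers summed to 97.9 to 111 and 95.7 to 126, with 1 of 5 called lower. Endothelial markers summed to 697 to 766 and 447 to 681, stellate cell and fibroblast markers to 1330 to 2000 and 1083 to 1752, and each list had 1 member called higher. Lymphocyte markers were 27.7 to 45.4 in sum on all arrays and kidney tubule markers 25.2 to 32.0. Adipose markers summed to 420 to 443 in non-tumour tissue and 405 to 1036 in the tumours. Intestine markers summed to 3145 to 3660 and 2475 to 3141, and pancreas markers to 126 to 140 and 350 to 585. Most of each sum was 1 gene: Fabp4 (adipose), Fabp2 (intestine) and Cela1 (pancreas). In limma Fabp4 and Fabp2 did not pass between tumour and non-tumour tissue (adjusted p = 0.108 and 0.841). Of the measured markers 0 of 2 in adipose were called, 3 of 6 in intestine lower and 1 of 4 in pancreas, Cela1, higher.

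Between non-tumour tissue on high fat diet and normal diet liver, no member passed the test in limma (0 of 7, and 0 at an unadjusted p below 0.05), against 3.85% of all genes called, 1.81% higher and 2.04% lower. None of the 18 alternatives called a member in this comparison. Mean intensity was higher on high fat diet for Akr1c18 and lower for the other 6, while on the fitted scale 2 members were higher and 5 lower. The members' median log2 fold change was -0.04, against -0.0050 over all genes.

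Akr1c18 had the largest difference of the 7, with a ratio of means of 3.72 and a log2 fold change of 0.76 ± 0.37 (adjusted p = 0.323). Its 3 non-tumour arrays were all above both normal diet arrays, but that of mouse 1 by little. Without the non-tumour array of mouse 117 the log2 fold change was 0.41 and without that of mouse 1 it was 1.09, and on the authors' values it was 1.53 (adjusted p = 0.126). For Akr1c12 and Akr1c6 the groups did not overlap either, and non-tumour tissue was lower. Their log2 fold changes were -0.32 ± 0.15 (adjusted p = 0.284) and -0.22 ± 0.23 (adjusted p = 0.659). Akr1c14, at -0.08 ± 0.34 (adjusted p = 0.933), did not overlap in intensity but did on the fitted scale. The share of all genes that separate between the diets was not counted, so this separation adds nothing to the tests. Akr1c13, Akr1c20 and Akr1b8 overlapped between the diets, with log2 fold changes of 0.04 ± 0.14, -0.04 ± 0.16 and -3.5e-05 ± 0.20. With 2 arrays of normal diet liver, their number limits the precision of each of these values.

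**Figure D4:**
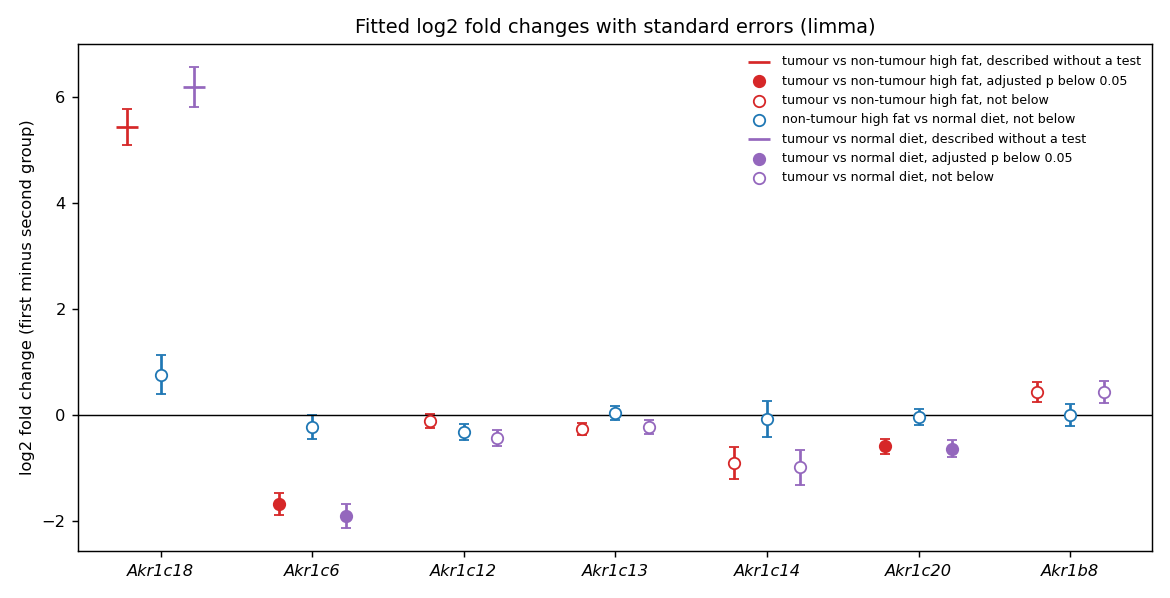
Fitted log2 fold changes (vertical axis) of the 7 measured members in the 3 comparisons, with standard errors. Filled points have an adjusted p below 0.05, and dashes mark Akr1c18 in the tumour comparisons, described without a test: it lies at 5.43 and 6.19 in the tumour comparisons and at 0.76 between the diets, where no member is filled.

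Against normal diet liver, the tumours had Akr1c18 higher by 6.19 ± 0.37 on the log2 scale, and their mean intensity was 211 times that of normal diet liver. Akr1c6 fell by 1.90 ± 0.23 (adjusted p = 0.00211), with 5.58 times the mean intensity in normal diet liver, and Akr1c20 fell by 0.63 ± 0.16 (adjusted p = 0.0267). Of the 6 members other than Akr1c18, 2 were called lower and none higher, where 27.8% of all genes were called, 12.9% higher and 15.0% lower. The median of the 6 was -0.53 against -0.01 over all genes. The 3 comparisons share arrays, so the tumour values enter both tumour comparisons.

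The remaining members did not pass against normal diet liver. Akr1c14 was at -0.99 ± 0.34 (adjusted p = 0.0722), Akr1c12 at -0.43 ± 0.15 (adjusted p = 0.0697), Akr1c13 at -0.23 ± 0.14 (adjusted p = 0.264) and Akr1b8 at 0.43 ± 0.20 (adjusted p = 0.166). For each of these 4 genes the tumour arrays did not overlap the normal diet arrays in intensity. How many of all genes separate in this way was not counted, so the separation adds nothing to the tests. Several calls changed with single arrays or settings. Akr1c20 was lost without normal diet mouse 117 (-0.41, adjusted p = 0.141) and without the tumours of mouse 186 (0.0644) or mouse 1 (0.0626), and also with local background subtraction (0.560) and with only the compared groups fitted (0.0576). Akr1c14 passed without the tumour of mouse 186 (adjusted p = 0.0111), with a common median (0.0306), an offset of 16 (0.0485) and a variance trend (0.0324), and was -0.65 without the tumour of mouse 1 (0.0581). Akr1c12 passed without the non-tumour array of mouse 1 (adjusted p = 0.0218) and with only the compared groups fitted (0.0397), and Akr1b8 without the tumour of mouse 1 (0.21, adjusted p = 0.0449). With local background subtraction Akr1c6 was lost too (-1.32, adjusted p = 0.830). On the authors' values 5 of the 6 members other than Akr1c18 passed, all lower. The median over all genes was then -0.18, and 31.9% of all genes called were higher. Over the 18 alternatives 217 to 6853 genes were called in this comparison.

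Of 9 other aldo-keto reductases looked for, 7 were on the array and measured. In tumour against non-tumour tissue 1 was called higher and 3 lower, where 12.0% of all genes were called higher and 13.4% lower. Akr1cl, an Akr1c-like gene, was 3.73 ± 0.839 in non-tumour tissue, near the blank level, and 99.3 ± 23.8 in the tumours, at 75.7, 99.0 and 123.2 in mice 117, 186 and 1. Its log2 fold change was 1.60 ± 0.09 (adjusted p = 0.000298), a size reduced by the offset. As for Akr1c18, the tumour of mouse 1 was the highest of the 3.

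Akr1d1, the steroid reductase of bile acid synthesis, was 1132 ± 120 in normal diet liver, 536 ± 36.9 in non-tumour tissue and 154 ± 73.6 in the tumours, and fell by 1.49 ± 0.32 against non-tumour tissue (adjusted p = 0.0181). Akr1a1, an aldehyde reductase that serves ascorbate synthesis in mice, went from 2372 ± 145 to 990 ± 124, a log2 fold change of -0.99 ± 0.10 (adjusted p = 0.00123). Akr7a5, a reductase of aflatoxin aldehydes, went from 637 ± 125 to 386 ± 31.8 (-0.44 ± 0.11, adjusted p = 0.0260). Akr1b10, a neighbour of Akr1b8, has 2 probes on the array, and only the brighter is described here. Akr1b10 was dim, at 11.2 ± 3.68, 22.3 ± 3.29 and 30.2 ± 2.80 in the 3 groups. It passed in the tumours against normal diet liver (0.44 ± 0.06, adjusted p = 0.00348) and not against non-tumour tissue (adjusted p = 0.0784). None of the 7 passed between the diets in limma, where Akr1a1 and Akr1b10 had an unadjusted p below 0.05.

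Enzymes that share substrates with the members were read from lists drawn up with earlier results known. Of 20 measured steroid dehydrogenases and reductases, 2 rose and 10 fell in tumour against non-tumour tissue, with a median log2 fold change of -0.41. Over all genes 12.0% were called higher and 13.4% lower in this comparison. Hsd3b7, an enzyme of bile acid synthesis, went from 1615 ± 391 to 488 ± 109 (-1.41 ± 0.22, adjusted p = 0.00583), Hsd17b11 from 385 ± 46.2 to 120 ± 32.9 (-1.27 ± 0.19, adjusted p = 0.00460) and Hsd3b6 from 448 ± 10.9 to 146 ± 32.0 (-1.25 ± 0.14, adjusted p = 0.00184). Between the diets 3 of the 20 fell and none rose, and in the tumours against normal diet liver 1 rose and 10 fell. The shares of all genes called higher and lower were 1.81% and 2.04% between the diets and 12.9% and 15.0% against normal diet liver. With a common median 2 of the 20 were higher and 3 lower between the diets, and 3 and 13 against normal diet liver. On the authors' values it was 0 and 6 between the diets, and 1 and 14 against normal diet liver. Between the diets 1084 of 16798 genes were called higher and 320 lower with a common median, and 326 and 500 on the authors' values. Of all genes called against normal diet liver, 39% were higher with a common median and 31.9% on the authors' values.

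Of 20 measured enzymes of aldehyde and carbonyl metabolism, 1 rose and 11 fell in the tumours against non-tumour tissue (median -0.27). Across all genes tested 12.0% were called higher and 13.4% lower. The enzymes of the 20 with the largest changes were the alcohol dehydrogenase Adh4, from 772 ± 200 to 134 ± 30.3 (-2.03 ± 0.19, adjusted p = 0.000893), the retinaldehyde dehydrogenase Aldh1a1, from 11065 ± 1372 to 2990 ± 645 (-1.56 ± 0.22, adjusted p = 0.00401), and its close relative Aldh1a7, from 2899 ± 232 to 939 ± 20.2 (-1.33 ± 0.09, adjusted p = 0.000464). Of 9 retinol and retinaldehyde genes 2 rose and 4 fell, beside the same shares of all genes. Rdh16, a retinol dehydrogenase, went from 526 ± 80.1 to 81.3 ± 25.3 (-2.09 ± 0.20, adjusted p = 0.00107), with a normal diet level of 355 ± 69.6. Rdh11, a retinaldehyde reductase, went from 74.6 ± 10.1 to 257 ± 42.4 (1.45 ± 0.12, adjusted p = 0.000793), but was 215 ± 29.8 in normal diet liver and so fell between the diets (-0.97 ± 0.14, adjusted p = 0.0200). Against normal diet liver the tumours had Rdh11 higher by 0.47 ± 0.14 (adjusted p = 0.0468), and by 0.25 on the authors' values (adjusted p = 0.358). Of the 3 measured genes of the polyol and fructose route, in which aldose reductase works, none passed in limma, and 1, the fructokinase gene Khk, was lower at an unadjusted p below 0.05.

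Akr1b8 and relatives are known targets of the oxidative stress regulator NRF2, so a short list of core targets was read. Of 7 measured, 1 fell in tumour against non-tumour tissue: Gclm, a subunit of the first enzyme of glutathione synthesis, went from 1433 ± 72.8 to 737 ± 34.4 (-0.64 ± 0.07, adjusted p = 0.00170). None rose in that comparison, where 12.0% of all genes were called higher and 13.4% lower. Between the diets 1 rose after adjustment, where 1.81% of all genes were called higher. At an unadjusted p below 0.05 in limma 6 were higher, but the share of all genes at that threshold was not counted. In the tumours against normal diet liver 2 rose and 1 fell, where 12.9% of all genes were called higher and 15.0% lower. With a common median 5 were called higher between the diets, where 1084 of 16798 genes were. Under the same scaling 3 were called lower in tumour against non-tumour tissue, where 2641 genes were. With an offset of 16 it was 2 higher between the diets, and 1 higher and 2 lower in tumour against non-tumour tissue. With local background subtraction 1 gene over all these lists, Rdh16, was called in tumour against non-tumour tissue.

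The genes whose log2 values followed Akr1c18 most closely over the 8 arrays were Npdc1 (r = 0.997), Tspan8 (0.996), Scd2 (0.996), Spink1 (0.995) and Fgd1 (0.994), among 15337 genes listed on every array. Spink1, a secreted trypsin inhibitor, was 4.9 and 3.9 in normal diet liver, 36, 28 and 10.7 in non-tumour tissue of mice 117, 186 and 1, and 2728, 1487 and 2039 in the tumours. Tspan8, a tetraspanin of the cell surface, was 11.7 and 23.4, then 63.6, 30.2 and 11.9, then 3804, 1998 and 4703 in the same order. As with Akr1c18, mouse 117 was highest among the non-tumour arrays for both. The arrays fall into groups, and 1033 genes had an r above 0.9 with Akr1c18, so these values describe the 8 arrays and are no test.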

How the data were processed

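Total RNA was amplified, coupled to Cy5 and hybridised to single-colour oligonucleotide arrays, per the labels' protocols. The deposited scanner files hold spot intensity on a linear scale, with 27456 spots of which 2736 are blanks. The deposited normalized intensity equals, as recomputed, the spot median minus the blank mean, scaled to a median of 25 (r2 = 1 on every array). How the authors derived it is not given in the sources used here.

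For the tests, spot medians were corrected by normexp with blanks as negative controls (offset 50), quantile normalized and taken to log2. A gene was its probe with the highest mean, kept if at least 1 group had it listed on every array. limma 3.58.1 (R 4.3.3) fitted 3 group means over all 8 arrays (5 residual and 1.49 prior degrees of freedom), 2-sided, with Benjamini-Hochberg adjustment over 16798 genes. The script was tested on simulated data. Array number limits the precision.

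Same-numbered tumour and non-tumour arrays come from 1 liver, and their deviations correlated at 0.443, 0.148 and 0.167. The members and lists were chosen with earlier results of these data known. Named beside the members were the other aldo-keto reductases, at most 3 called genes per list with the largest changes, and the 5 genes most correlated with Akr1c18. Alternatives were the background, offset, scaling, filter, probe rule, variance trend, groups fitted, mouse block and each array left out. Windows were aligned with biopython 1.88.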

Additional observations from a re-analysis of the deposited data

How the results depend on the processing

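Of the 6 members other than Akr1c18, 2 were called lower in tumour against non-tumour tissue and none higher. This became 0 with local background subtraction, 4 lower with a common median, and 4 lower and 1 higher on the authors' values. With 1 high fat array left out 1 to 2 were called lower, and without the tumour of mouse 1 also 1 higher. In the tumours against normal diet liver 2 of these 6 were called lower. That became 0 with local background and 5 on the authors' values. With 1 high fat array left out it was 1 to 3, and without the tumour of mouse 1 also 1 higher. Between the diets no member was called under any of 18 alternatives. With the mouse number as a replicate block, 2 of the 6 members other than Akr1c18 were called in tumour against non-tumour tissue. Over all genes 3485 were called with that block, which changed no call among the 6. Genes called were 4267, 646 and 4675 in the 3 comparisons (tumour against non-tumour, diets, tumour against normal diet). With local background they were 125, 3 and 217, and with 1 array left out 3116 to 4195, 100 to 784 and 2316 to 4437. With a common median 1404 were called between the diets, 77.2% of them higher, against 47.1% in the reported fit. In the tumours against normal diet liver the higher share of calls was 46.2%, and 31.9% on the authors' values.

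Directions turned for 1 called value: Akr1c6 in tumour against non-tumour tissue was 0.23 with local background. The others that turned were uncalled values between the diets. Akr1c13 became -0.0020 with local background, -0.21 on the authors' values, and between -0.075 and 0.13 with 1 array left out. Akr1c14 became 0.048 with a common median. Akr1c20 became 0.078 with a common median and lay between -0.27 and 0.18 with 1 array left out. Akr1b8 became 0.018 with local background and 0.015 with a common median, and lay between -0.046 and 0.046 with 1 array left out. On the authors' values the median over all genes was -0.11 between the diets. The cause of these changes was not tested. Dim members such as Akr1b8 and Akr1c20 have the least signal over background. Akr1c18 was as dim in normal diet liver (19.4 and 18.6) and in non-tumour tissue of mouse 1 (24.3). Its ratios of 211 against normal diet liver and 202 in mouse 1 divide by these dim values.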
